A study of Mus musculus with 14 samples.

Results

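In MLL-AF9 leukemia cells grown in DMSO, 457 of the 8482 autosomal MLL1 peaks shared at least 1 bp with both a WDR5 peak and an H3K4me2 peak, and these 457 sites are described here across the other peak lists. A further site off the autosomes met the same rule, which made 458 among 8525 MLL1 peaks on all chromosomes. The 3 DMSO lists chose the members, so their MLL1, WDR5 and H3K4me2 in DMSO are not findings. The other 8025 autosomal MLL1 peaks served for comparison. Of these, 3933 had H3K4me2 but no WDR5, and 4092 lay outside H3K4me2, 14 of them with WDR5 and 4078 with neither.

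MLL1 is a histone methyltransferase that places methyl groups on lysine 4 of histone H3. It works in a core complex with WDR5, RbBP5 and ASH2L, and WDR5 binds a short motif near the C-terminal SET domain of MLL1 and is shared with the other enzymes of the family. H3K4me2, the dimethylated form, lies over promoters and enhancers, so a site with all 3 is where a complex and a mark that it can write were seen together.

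The data are chromatin immunoprecipitation and sequencing (ChIP-seq) peak lists, with 1 library per condition and antibody. MAF9 cells, mouse bone marrow cells transduced with MLL-AF9, received MM-401 at 20 µM for 2 days, an inhibitor that keeps WDR5 from binding MLL1, or its solvent DMSO, and MLL1, WDR5 and H3K4me2 were mapped. Bone marrow cells with MLL1 flox/flox and ER-cre+/-, also transduced with MLL-AF9, received 4-hydroxytamoxifen (4OHT) at 400 nM for 2 days, which activates Cre so that it deletes Mll1, or its solvent ethanol (EtOH), and WDR5 and H3K4me2 were mapped. All cells carried the MLL-AF9 fusion, and per the study the MLL1 antibody binds the C-terminal part of MLL1, which the fusion lacks. Loss of MLL1 under 4OHT could not be checked in these lists, since MLL1 was not mapped in the flox cells. The samples had no replicates, and the lists held positions without heights or counts, so a site without a peak is a site where none was called, and no difference between conditions could be set against a replicate error. Shares are given with 95% Wilson intervals over peaks, which cover counting only.

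The lists differed in length and in caller. For WDR5, 14481 peaks were called in DMSO and 17273 with MM-401, against 34587 in EtOH and 41054 with 4OHT, and the H3K4me2 lists held between 91305 and 105136. The MLL1 lists held 8525 peaks in DMSO and 27345 under MM-401, and the former came from a different peak caller than the other 9 lists.

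The first comparison asked what remained of each component at the members in the other 7 lists. H3K4me2 was nearly always there, and WDR5 was found at about 1 site in 3 in every other list, whether that list came from treated or from solvent cells. H3K4me2 covered 454 of the 457 members under MM-401, or 99.3% (98.1 to 99.8%), and 452, or 98.9% (97.5 to 99.5%), in EtOH and again under 4OHT. Over all autosomal DMSO MLL1 peaks the H3K4me2 shares were 51.1%, 51.5% and 50.9%, and for those with H3K4me2 but no WDR5 they were 96.6%, 96.3% and 95.2%. WDR5 was present at 166 members under MM-401, or 36.3% (32.0 to 40.8%). In EtOH, the solvent control of the other cells, it was present at 162, or 35.4% (31.2 to 39.9%), and under 4OHT at 142, or 31.1% (27.0 to 35.5%). The intervals of these 3 shares overlapped, so the list from inhibitor-treated cells of the same line and the list from solvent-treated cells of the other line retained WDR5 at like shares of the members. With every WDR5 list reduced to the same number of its widest peaks, the shares were 33.4%, 28.1% and 25.1%. The background over all autosomal DMSO MLL1 peaks was 5.59% for MM-401, 6.78% for EtOH and 6.74% for 4OHT. MLL1 peaks with H3K4me2 but no WDR5 in DMSO had WDR5 in these lists in 7.55%, 9.13% and 9.61% of cases, and those outside H3K4me2 in 0.269%, 1.32% and 1.27%. The members were chosen for WDR5 in DMSO, so their share in any other list can only be lower than in DMSO, and their excess over the other MLL1 peaks follows in part from that choice.

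MLL1 itself was found under MM-401 at 67 members, or 14.7% (11.7 to 18.2%), against a background of 5.28%. It was found at 9.05% (8.19 to 9.99%) of the MLL1 peaks with H3K4me2 but no WDR5, and at 0.611% (0.414 to 0.90%) of those outside H3K4me2. The intervals of these 3 sets did not overlap, so MLL1 recurred most often where WDR5 had also been called in DMSO. Among those outside H3K4me2, the 14 with WDR5 gave 4, or 28.6% (11.7 to 54.6%). The MLL1 peaks had median widths of 186 bp at the members, 182 bp with H3K4me2 but no WDR5 and 176 bp with neither. Members with MLL1 under MM-401 had a median width of 207 bp, and those without it 184 bp. What width contributed was not tested. Because a different caller made the DMSO list, the effect of MM-401 and that of the caller cannot be told apart, and the low level of 14.7% is not a measure of lost MLL1.

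**Figure D1:**
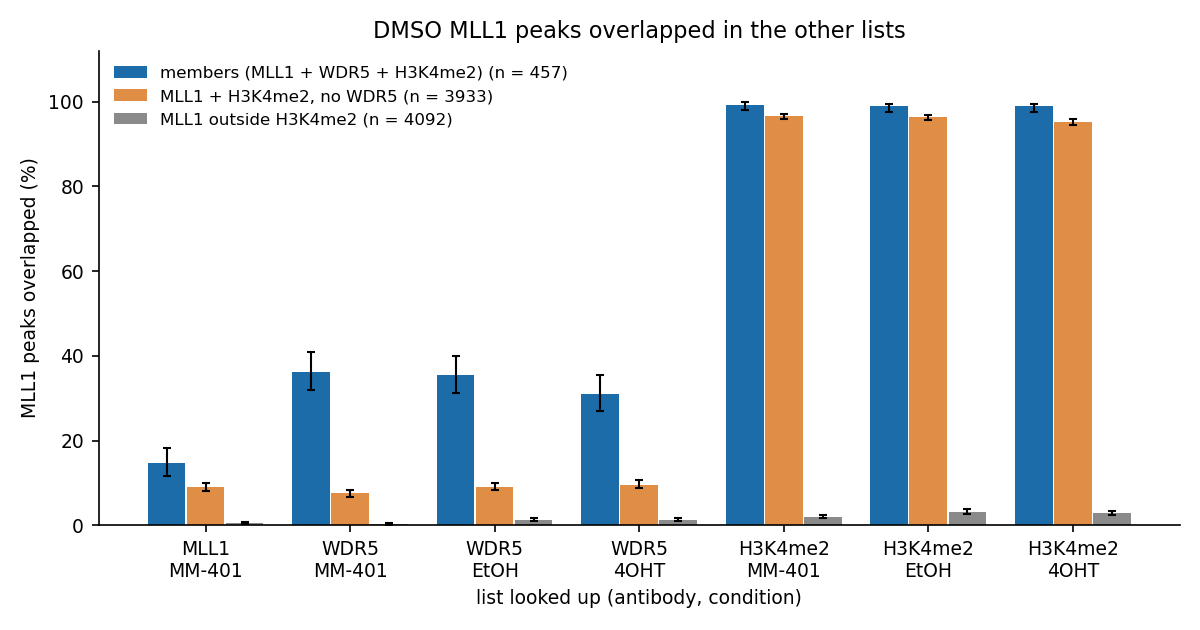
Share of DMSO MLL1 peaks (%) overlapped by at least 1 bp in each of the 7 other lists, for the 457 members (blue), the 3933 MLL1 peaks with H3K4me2 but no WDR5 (orange) and the 4092 outside H3K4me2 (grey), with bars for 95% Wilson intervals. WDR5 stands between 31.1% and 36.3% at the members in all 3 lists, while H3K4me2 stands at 98.9% or above.

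Since the DMSO list had chosen the members, sites were also chosen from the same MLL1 peaks by the WDR5 list of each other condition in turn. All 4390 MLL1 peaks with DMSO H3K4me2 entered this comparison. WDR5 lay at 457 of them in DMSO and at 463 under MM-401, and at 521 in EtOH and 520 under 4OHT. The number of these MLL1 sites with WDR5 was thus nearly equal in DMSO and MM-401 and differed by 1 between EtOH and 4OHT. Of the 463 sites chosen by the MM-401 list, 35.9% (31.6 to 40.3%) had WDR5 in DMSO, against 36.3% read in the other direction. Both shares count the same 166 sites, so their likeness follows from the near-equal totals and is no second check. Likewise 33.4% (29.5 to 37.6%) of the 521 EtOH sites had WDR5 under 4OHT, and 33.5% (29.5 to 37.6%) of the 520 sites chosen under 4OHT had it in EtOH. These too were the same 174 sites. Sites that lacked WDR5 after treatment were matched in number by sites that had it only after treatment, 291 against 297 for MM-401 and 347 against 346 for 4OHT. This restates the near-equal totals. The lowest shares were between MM-401 and 4OHT, at 24.8% (21.1 to 29.0%) of the MM-401 sites and 22.1% (18.8 to 25.9%) of the 4OHT sites.

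**Figure D2:**
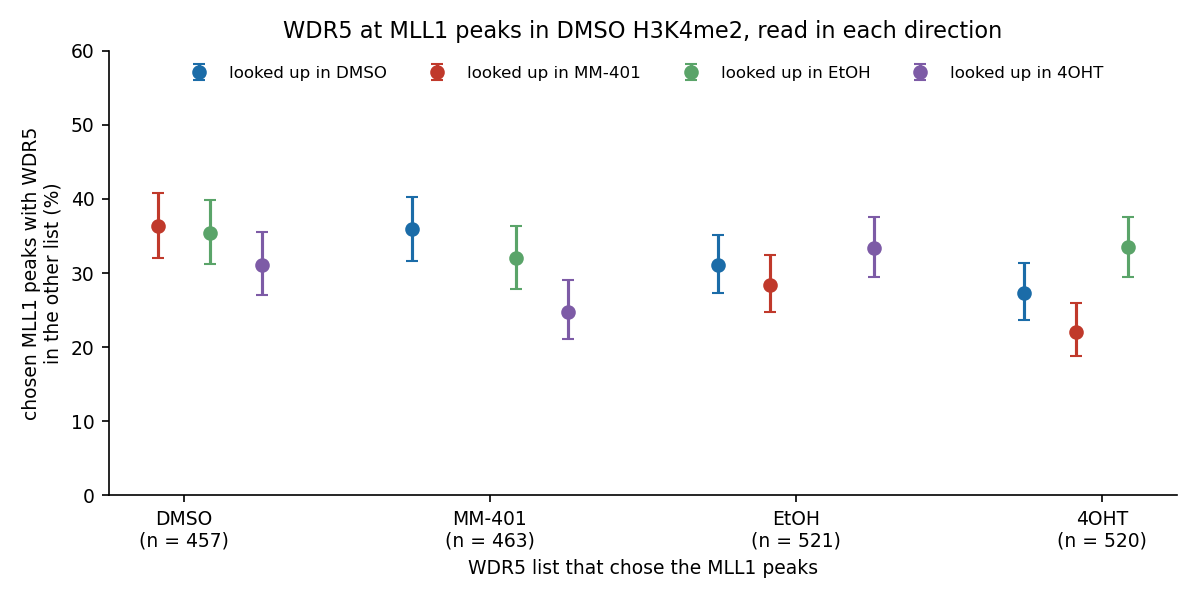
Share (%) of MLL1 peaks in DMSO H3K4me2 that carry WDR5 in a second list, after the sites were chosen by the WDR5 list named on the x axis; colours give the second list and bars the 95% Wilson intervals. The DMSO to MM-401 share of 36.3% and its reverse of 35.9%, and the EtOH to 4OHT share of 33.4% and its reverse of 33.5%, lie at the same level. Each pair counts the same shared sites, so this follows from the near-equal totals.

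The members were then sorted by their WDR5 state in the 3 other WDR5 lists. The same patterns are not given for all DMSO WDR5 peaks, so none can be called particular to the members. Taken singly, the MM-401, EtOH and 4OHT lists overlapped 40.3%, 34.7% and 30.3% of all autosomal DMSO WDR5 peaks. WDR5 was absent from all 3 at 168 members, or 36.8% (32.5 to 41.3%), present in at least 1 at 289, and present in all 3 at 46, or 10.1% (7.63 to 13.2%). It was present under MM-401 alone at 64 members, in EtOH alone at 48 and under 4OHT alone at 42. Sites with WDR5 in EtOH but in neither treated list, where loss after both an inhibitor and a deletion would be looked for, were therefore 48, or 10.5% (8.01 to 13.7%), and fewer than the 64 with WDR5 under MM-401 but in neither flox list. Among the 162 members with WDR5 in EtOH, 79 kept it under 4OHT, or 48.8% (41.2 to 56.4%), and 81 had it under MM-401, or 50% (42.4 to 57.6%). A member called in 1 list was called more often in the next: without WDR5 in EtOH, the shares were 21.4% (17.1 to 26.4%) under 4OHT and 28.8% (23.9 to 34.2%) under MM-401. Of the EtOH-positive members, 59.3% (48.4 to 69.3%) of the 81 without WDR5 under MM-401 also lacked it under 4OHT, against 43.2% (33.0 to 54.1%) of the 81 with it, and these intervals overlapped.

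WDR5 and MLL1 were seldom both called at a member under MM-401. Both were called at 29 members and neither at 253, or 55.4% (50.8 to 59.9%). Members with MLL1 under MM-401 had WDR5 there in 43.3% (32.1 to 55.2%), and members lacking it in 35.1% (30.6 to 40.0%), a difference within the counting intervals. H3K4me2 was present under MM-401 at 252 of the 253 sites with neither protein. In all, H3K4me2 persisted through the 3 other conditions at 448 members, or 98.0% (96.3 to 99.0%), against 93.1% (92.3 to 93.9%) of the 3933 MLL1 peaks with H3K4me2 but no WDR5. At 146 members the mark was present in all 3 conditions while WDR5 was called in none and MLL1 was not called under MM-401. Counts that join WDR5 and MLL1 are not given for the other MLL1 peaks, so none can be called particular to the members. Taken singly, MLL1 and WDR5 were called under MM-401 at 9.05% and 7.55% of the MLL1 peaks with H3K4me2 but no WDR5. Over all autosomal DMSO MLL1 peaks these shares were 5.28% and 5.59%.

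The H3K4me2 domain also reached over more of the members outside DMSO. In DMSO it covered every base of the MLL1 peak at 424 members, or 92.8% (90.0 to 94.8%). Under MM-401 it did so at 447, or 97.8% (96.0 to 98.8%), in EtOH at 443, or 96.9% (94.9 to 98.2%), and under 4OHT at 431, or 94.3% (91.8 to 96.1%), with backgrounds over all MLL1 peaks of 47.9%, 48.3% and 47.7%. The MLL1 peaks with H3K4me2 but no WDR5 went from 92.6% (91.8 to 93.4%) in DMSO to 91.3% (90.4 to 92.2%) under MM-401. For EtOH their share was 91.5% (90.6 to 92.4%) and for 4OHT 90.9% (90.0 to 91.8%). At the members the DMSO interval was apart from that of MM-401 and also from that of the EtOH control, and it overlapped that of 4OHT. The higher cover at the members was thus not particular to the inhibitor. At the other marked MLL1 peaks the MM-401 and EtOH intervals overlapped that of DMSO, and the 4OHT interval met it at 91.8%. The same sites were read in every list, which these intervals do not take into account.

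How often WDR5 was found again varied most with the width of the WDR5 peak that had chosen the member, called its partner here. The 457 members had 450 distinct partners with a median width of 225 bp (quartiles 150 and 350), against 175 bp (125 and 275) for all autosomal DMSO WDR5 peaks. MLL1 peaks of the members had a median width of 186 bp. The midpoints of the paired peaks lay a median of 107.5 bp apart, and WDR5 covered a median of 47.6% of the MLL1 peak. The smallest overlap was 1 bp at chr5:109123050-109123231, and the nearest misses were chr11:120443201-120443385, which lay 1 bp from a WDR5 peak, and chr8:113369457-113369674, at 2 bp.

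Of the partners of 75 to 100 bp, 10.3% (5.29 to 19%) were overlapped by a WDR5 peak under MM-401, and of those over 500 bp, 82.0% (69.2 to 90.2%). The classes between them gave 24.1%, 51.1% and 60.2%. The same rise was seen in EtOH, from 8.97% (4.42 to 17.4%) to 88.0% (76.2 to 94.4%), and under 4OHT, from 15.4% (9.03 to 25%) to 80% (67.0 to 88.8%). Wide WDR5 partners were thus overlapped in most cases in every condition, 4OHT included, and narrow ones seldom in any. An overlap of 1 bp is met more easily by a wide peak, so the rise is not a measure of retained WDR5. What width alone contributed was not tested. WDR5 peaks in H3K4me2 without MLL1 followed the same course, with 18.4% (17.0 to 19.9%) of the narrowest and 79.6% (75.8 to 83.0%) of the widest found under MM-401. Over all widths, 40.9% (36.4 to 45.5%) of the partners and 40.8% (39.9 to 41.7%) of those peaks were found under MM-401, with a background of 40.3% over all DMSO WDR5 peaks. The partners are the wider set, and within width classes they stood lower under MM-401 in 4 of 5, at 10.3% against 18.4%, 24.1% against 30.3%, 51.1% against 55.3% and 60.2% against 70.4%, and higher only in the widest class. In EtOH the partners stood at 40.4% (36.0 to 45.0%) and the peaks without MLL1 at 34.5% (33.6 to 35.3%), and under 4OHT at 37.6% (33.2 to 42.1%) and 29.8% (29.0 to 30.6%), with backgrounds of 34.7% and 30.3%. Within each of the 5 width classes the intervals of partners and other WDR5 peaks overlapped in all 3 lists.

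**Figure D3:**
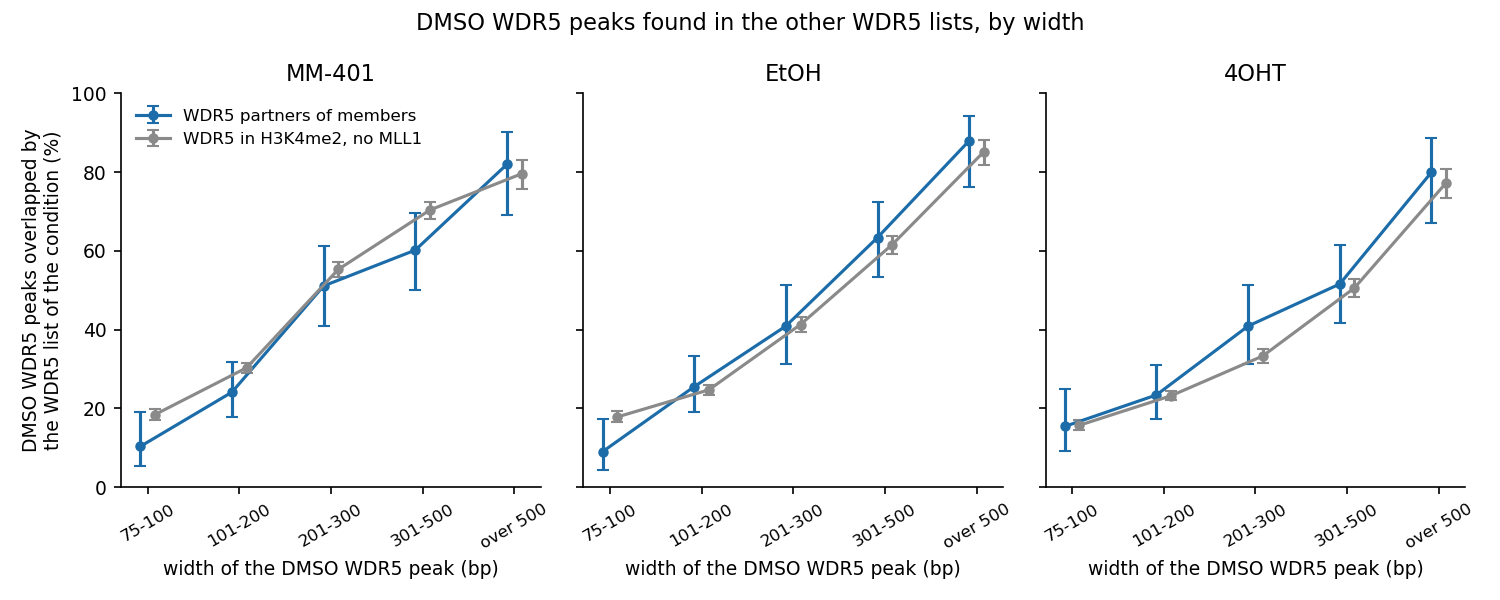
Share of DMSO WDR5 peaks (%) overlapped by the WDR5 list of MM-401, EtOH and 4OHT, by width of the DMSO peak in bp, for the 450 partners of the members (blue) and the 12263 WDR5 peaks in H3K4me2 without MLL1 (grey), with 95% Wilson intervals. Both sets rise with width in all 3 panels, for the partners from 10.3% to 82.0% under MM-401.

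Where a partner recurred, the WDR5 peak over it tended to be narrower. Under MM-401, 116 of 184 such peaks were narrower than in DMSO and 53 wider, with a median change of -75 bp, and the share of narrower peaks over all DMSO WDR5 peaks found under MM-401 was 45.0%. In EtOH 98 of 182 were narrower, against a background of 49.8%, and under 4OHT 94 of 169, against 49.4%, and the median change was -75 bp in both. The partners are wider than WDR5 peaks at large and were chosen in DMSO, and the decrease was of the same size in the EtOH control. Members whose MLL1 peak was covered by WDR5 over more than 75% of its length had WDR5 with MM-401 in 53.8% (45.3 to 62.2%), and those covered over 25% or less in 30.6% (22.8 to 39.7%). The classes between gave 25.8% (18.9 to 34.2%) for 25 to 50% and 32.6% (23.9 to 42.7%) for 50 to 75%, so only the highest class stood out.

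Many members without WDR5 in another list had it close by. Under MM-401, 53.2% (48.6 to 57.7%) of the members had a WDR5 peak within 250 bp and 67.6% (63.2 to 71.7%) within 2000 bp, with backgrounds of 11.3% and 25.5%. Within 2000 bp the shares were 73.3% (69.1 to 77.2%) in EtOH and 73.5% (69.3 to 77.4%) under 4OHT, with backgrounds of 31.2% and 33.0%. For MLL1 under MM-401, 24.3% (20.6 to 28.4%) of the members had a peak within 250 bp and 50.8% (46.2 to 55.3%) within 2000 bp, with backgrounds of 9.69% and 24.4%. MLL1 peaks with H3K4me2 but no WDR5 in DMSO had WDR5 within 2000 bp in 44.1% (42.6 to 45.7%), 52.0% and 55.0% for the MM-401, EtOH and 4OHT lists, a gain over their overlap shares at least as large as that of the members. Many sites counted as absent by overlap thus had a WDR5 peak nearby, but a peak near a member cannot be read as its own WDR5 at a shifted position.

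**Figure D4:**
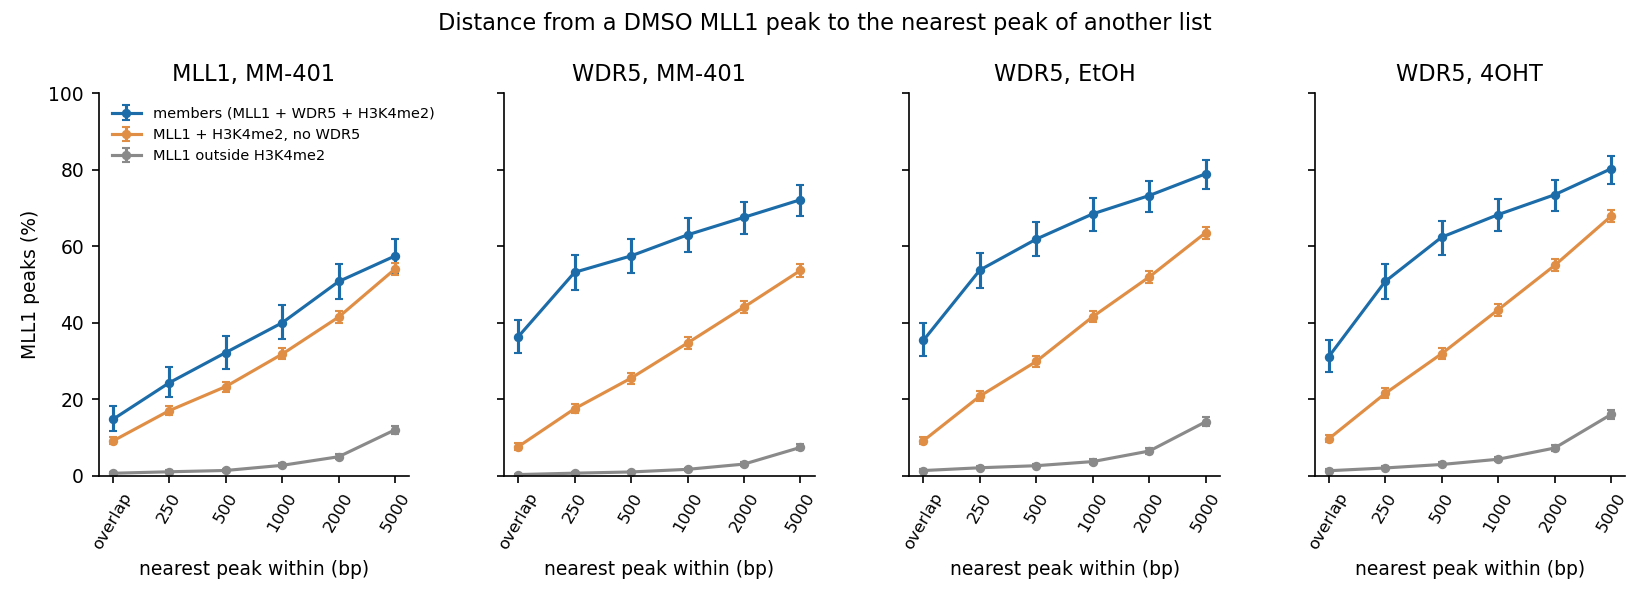
Share of DMSO MLL1 peaks (%) with the nearest peak of another list overlapping or within the distance on the x axis in bp (steps not to scale), for members (blue), MLL1 peaks with H3K4me2 but no WDR5 (orange) and those outside H3K4me2 (grey), with 95% Wilson intervals. The members lie highest in each panel, with 67.6% having WDR5 within 2000 bp under MM-401.

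The same held within the H3K4me2 domain, the DMSO H3K4me2 peak that shares most bases with a member. Of the 291 members without WDR5 under MM-401, 127 had it elsewhere in that domain, or 43.6% (38.1 to 49.4%). The corresponding values were 151 of 295 in EtOH, or 51.2% (45.5 to 56.8%), and 173 of 315 under 4OHT, or 54.9% (49.4 to 60.3%). Counted by domain, 63.0% (58.4 to 67.4%) of the 446 domains that hold a member held WDR5 under MM-401, and the EtOH and 4OHT lists gave 67.9% (63.5 to 72.1%) and 68.4% (63.9 to 72.5%). The backgrounds over all DMSO domains were 12.1%, 13.7% and 14.2%, but most of those domains are narrow and held no WDR5 in DMSO. In domains where MLL1 and WDR5 had both been called but at separate positions the shares were 65.0%, 67.6% and 69.6%, each within the interval of the members' domains. MLL1 was called under MM-401 in 46.2% (41.6 to 50.8%) of the members' domains (background 8.87%) and in 52.2% (49.2 to 55.2%) of the domains with both apart. For WDR5, with all widths pooled, domains in which it overlapped MLL1 and domains that merely held both differed by less than the counting intervals. The sets differ in width, with medians of 2600 and 3450 bp, and the shares tended to rise with width. Within width classes the members' domains stood higher in every class in EtOH and under 4OHT. Under MM-401 they stood higher in all but domains over 4000 bp, at 77.8% against 78.1%. The intervals overlapped in each class. For MLL1 the members' domains stood lower with all widths pooled, where their narrower widths also count. Within width classes they stood lower only in domains of over 1000 and up to 2000 bp, at 19.8% against 22.3%. In domains of over 2000 and up to 4000 bp both sets stood at 45.5%. In domains over 4000 bp the members' domains stood higher, at 82.8% (74.2 to 89.0%) against 73.0% (68.6 to 77.0%), and these intervals overlapped. They also stood higher in domains of up to 1000 bp, at 33.3% (19.8 to 50.4%) of 33 against none of 20 (0 to 16.1%). Of those 33, 3 lay in a stretch of chromosome 9 where the WDR5 peaks had the same borders in all 4 WDR5 lists, and without them the share was 26.7% (14.2 to 44.4%), whose interval overlapped that of the 20.

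The domains holding members were wide. Their median width was 2600 bp (quartiles 1750 and 3800), against 425 bp for all autosomal DMSO domains, 1750 bp for domains with WDR5 but no MLL1, 2025 bp for domains with MLL1 but no WDR5 and 3450 bp for domains with MLL1 and WDR5 apart. A wide domain has more room for any peak, so its width is not independent of the overlap that chose it. Of the 446 domains, 435 held 1 member and 11 held 2, and 34.5% held 2 or more WDR5 peaks, against 25% of the domains with MLL1 and WDR5 apart and 12.2% of those with WDR5 but no MLL1. The widest, of 28575 bp, held chr10:20866404-20866617 with 4 WDR5 peaks and measured 20400 bp with MM-401, while its EtOH and 4OHT widths were 33975 and 26000 bp.

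Most of the length of these domains stayed marked. The whole DMSO length was covered under MM-401 at 141 of the 446, or 31.6% (27.5 to 36.1%), in EtOH at 63.5% (58.9 to 67.8%) and under 4OHT at 41.3% (36.8 to 45.9%), with backgrounds of 20.5%, 31.1% and 23.5%. Domains with MLL1 and WDR5 apart gave 26.3%, 60.1% and 39.4%. Those with WDR5 but no MLL1 gave 32.6%, 53.5% and 38.4%, and those with MLL1 but no WDR5 24.1%, 50.3% and 32.7%. Such cover was thus not particular to the members' domains. The median cover was 96.4% with MM-401, 100% in EtOH and 98.2% with 4OHT, and less than 50% of the length was covered at 3, 7 and 8 domains. In domains with MLL1 and WDR5 apart the median cover was 96.4%, 100% and 98.4%.

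Members lay inside their domains more than at the rims. The midpoint of the MLL1 peak was a median of 807 bp from the nearest edge, and 66.7% (62.3 to 70.9%) lay in the central 50% of the domain, against 62.6% (61.1 to 64.1%) of the MLL1 peaks with H3K4me2 but no WDR5. Midpoints outside the domain occurred at 11 members. In the outer 50% of the domain, 39.5% (32.1 to 47.4%) of 152 members had WDR5 under 4OHT, and in the central 50%, 26.9% (22.2 to 32.1%) of 305. The EtOH control went the same way, with 41.4% (33.9 to 49.4%) and 32.5% (27.5 to 37.9%), and under MM-401 the shares were 38.2% (30.8 to 46.1%) and 35.4% (30.3 to 40.9%).

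Domain width over the same member was then followed between each treatment and its solvent. Between DMSO and MM-401 the domain was wider at 237 and narrower at 204 of the 454 members with a domain in both lists, or 52.2% and 44.9%, with backgrounds over all DMSO domains of 53.0% and 43.9%. The median change was 25 bp, which is 1 step of the grid on which peaks were called, from a median of 2612 bp to one of 2875 bp. Between EtOH and 4OHT it was narrower at 356 and wider at 84 of 449 members, or 79.3% and 18.7%. The median change was -375 bp, from 3700 to 3025 bp. Over all EtOH domains 51.7% were narrower under 4OHT and 45.2% wider, and over those wider than 2000 bp 79.3% were narrower and 19.1% wider. The narrowing at the members was thus as frequent as in wide EtOH domains at large, and the MLL1 peaks with H3K4me2 but no WDR5 gave 77.8% narrower with a median change of -400 bp.

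Large changes of width were few, and the backgrounds over all domains include many narrow ones. Under MM-401 the domain was at least 2 times as wide as in DMSO at 41 members, or 9.03% (background 22.2%), and at most 0.5 times as wide at 4, or 0.881% (background 9.81%). Under 4OHT it was at most 0.5 times as wide as in EtOH at 51 members, or 11.4% (background 11.4%, or 7.77% over EtOH domains wider than 2000 bp), and at least 2 times as wide at 3, or 0.668% (background 21.0%, or 0.520%). The flox cells also started from wider domains, since between DMSO and EtOH the domain was wider at 366 of 452 members, or 81.0% (background 66.1%), with a median change of 650 bp. Domains under 4OHT remained wider than in DMSO at 276 of 452 members. The difference between the solvent controls of both cell populations was thus larger in median width than either change with treatment.

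**Figure D5:**
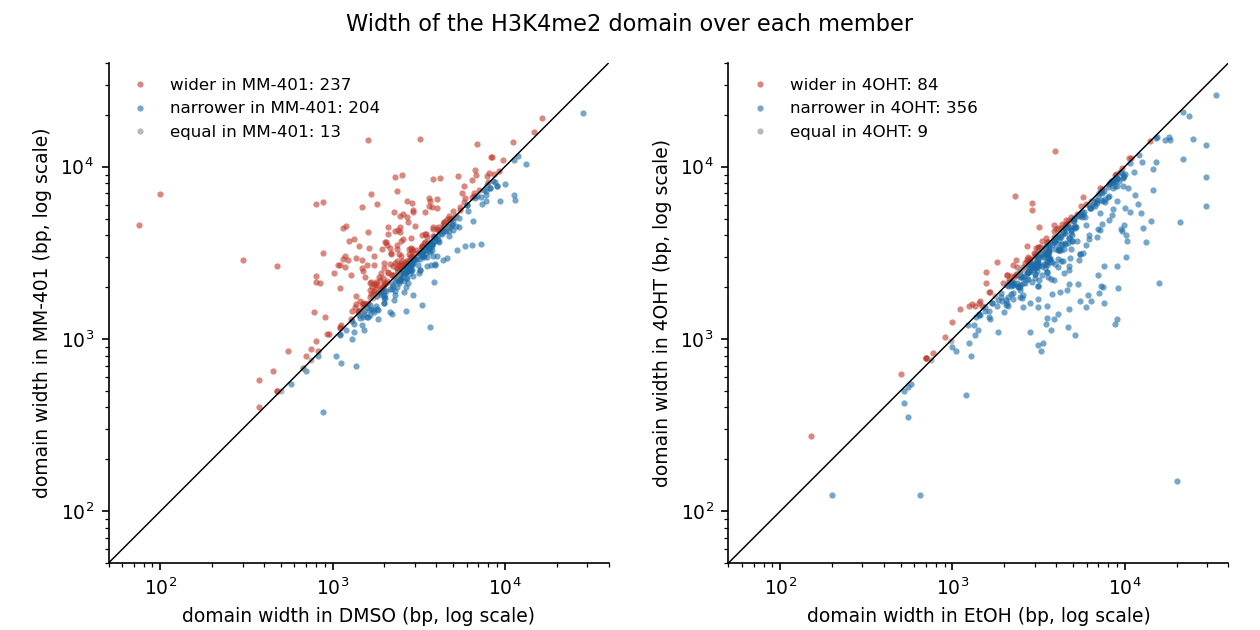
Width in bp (log scales) of the H3K4me2 domain over each member, DMSO against MM-401 on the left and EtOH against 4OHT on the right, with each point 1 member and the line marking equal width. Points lie on both sides under MM-401 (237 wider, 204 narrower) and mostly below the line under 4OHT (84 wider, 356 narrower).

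Single members show these states. A peak lay over the member in all 7 other lists at 10 sites, of which 3 were in that stretch of chromosome 9. The widest partners among them were on chromosome 1, where the neighbouring members chr1:90172338-90173356 and chr1:90173418-90174445 shared a WDR5 peak of 1475 bp in a domain of 8975 bp. Under MM-401 the WDR5 peak there was 2325 bp wide and the domain 7750 bp, and in EtOH and 4OHT the domain was 8200 and 8075 bp. WDR5 was narrower in the flox cells, with peaks of 200 and 250 bp over these members in EtOH and of 225 and 725 bp under 4OHT. At chr3:95686648-95686916 the WDR5 peak had a width of 1100 bp in DMSO and 775 bp with MM-401, and of 875 bp in EtOH and 675 bp with 4OHT, in domains of 2900 to 4150 bp. WDR5 was thus called at this site in all 4 conditions and was widest in DMSO. The member with the widest MLL1 peak was chr17:39979926-39983765, with 3840 bp against a median of 186 bp over the members. It had WDR5 peaks of 950 and 875 bp in DMSO and MM-401 but of 6125 and 3675 bp in EtOH and 4OHT. Whether this stretch is present in extra copies was not tested, so these widths cannot be read as a difference in binding.

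Among the 48 members with WDR5 in EtOH but in neither treated list, chr8:121918498-121918705 had the widest partner, 575 bp, and a WDR5 peak of 650 bp in EtOH. Under MM-401 the nearest WDR5 peak was 8473 bp away, but under 4OHT it was 21 bp away, and the domain there measured 3200 bp in DMSO and 2900 bp with the inhibitor, and 3250 bp in EtOH and 850 bp after 4OHT. At chr3:30992856-30993011 the nearest WDR5 peak was 55781 bp away under MM-401 and 115 bp under 4OHT. Both sites thus lacked WDR5 in the 2 treated lists, with a WDR5 peak close by after 4OHT but not after MM-401. Such a nearby peak cannot be read as the member's own WDR5. At chr17:34066695-34066827 WDR5 was 9445 bp away under MM-401 and 124 bp under 4OHT.

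Among the 168 members with WDR5 in no other list, the 3 widest partners were still overlapped by WDR5 in all 3 lists, by peaks that missed the MLL1 peak. At chr1:16093065-16093189 the partner was 2000 bp wide, and WDR5 lay 37 bp away with MM-401, and the EtOH and 4OHT peaks lay 12 and 362 bp away. At chr15:76735509-76735736 the distances were 309, 90 and 59 bp, and at chr4:43044207-43044384 they were 132, 7 and 132 bp. By contrast, at chr1:58026256-58026442, with a partner of 775 bp, the nearest WDR5 peak was 188584 bp away with MM-401, and 130281 and 100884 bp away in EtOH and 4OHT. That site kept H3K4me2 in domains of 1400, 1325 and 1200 bp, against 2200 bp in DMSO.

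H3K4me2 was missing in at least 1 other condition at 9 members, or 1.97% (1.04 to 3.70%). The widest DMSO domain among them, 1800 bp over chr12:105226896-105227134, measured 2050 bp under MM-401, and the mark was absent at the member in EtOH and under 4OHT, lying 267 and 17 bp away. At chr5:122973154-122973340, in a DMSO domain of 1050 bp, no peak of the 7 other lists overlapped the member, but H3K4me2 lay 54 bp away under MM-401 and 4OHT and 379 bp away in EtOH. At chr1:157012476-157012648 H3K4me2 was 5326 bp away under 4OHT, although domains of 1300, 1000 and 650 bp covered the member in DMSO, MM-401 and EtOH. Of the 9, only chr1:157012476-157012648 and chr15:5161268-5161490, with the mark 22493 bp away in EtOH, were more than 1000 bp from H3K4me2 in a list that lacked it, and at the other 7 it lay within 806 bp.

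Members were spread over all 19 autosomes, with a median of 680222 bp to the nearest other member. Chromosome 1 held 75, or 16.4% (13.3 to 20.1%), against 11.1% of all autosomal MLL1 peaks, 10.8% of WDR5 peaks and 7.36% of H3K4me2 peaks. Of the MLL1 peaks with H3K4me2 but no WDR5, 6.61% (5.88 to 7.43%) lay there. Why the members' share was higher was not tested. On chromosome 1 MLL1 was found under MM-401 at 17 of 75 members, or 22.7% (14.7 to 33.3%), and on chromosomes 2 to 19 at 13.1% (10.1 to 16.8%). WDR5 under MM-401 stood at 37.3% (27.3 to 48.6%) and 36.1% (31.5 to 41.1%), so the WDR5 result did not rest on chromosome 1.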

How the data were processed

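ChIP-seq for MLL1, WDR5 and H3K4me2 was compared in MAF9 cells (DMSO or MM-401) and Mll1 flox cells (EtOH or 4OHT), cultured with 15% serum and 10 ng per ml interleukin-3. The 14 samples comprised 4 inputs, not analysed here, and 10 libraries with 1 peak list each. The authors deposited peak positions called on 1 library at a time. The lists hold no score, height, p-value or read count, so depth is unknown. The submitters' processing notes name Bowtie and mm9, and coordinates are given as deposited, in that build. In 9 lists every peak has an HPEAK name and lies on a 25 bp grid, read as 1-based with both ends included. The list of DMSO MLL1 has no names and 4.12% of its starts on the grid, and the study described MACS for MLL1, so its starts were read as 0-based, with a possible error of 1 bp.

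Peaks sharing at least 1 bp were called overlapping, using numpy 2.4.6 in Python 3.11.15, with matplotlib 3.10.9 for plots. Where several peaks overlapped a member, the partner or domain was the one sharing most bases. Wilson intervals (95%) treat neighbouring peaks as independent, and members are no replicates of a condition. With 1 library per condition no test was run. Overlap code was tested on simulated lists. No mm9 genome or annotation was used here, so the planned shares near start sites, motifs and gene names were not run. The members, comparison sets and alternatives were chosen with earlier results of these data known. Members named by position had the widest partners within a WDR5 pattern, the widest or narrowest domains, a missing mark, or the smallest overlap.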

Additional observations from a re-analysis of the deposited data

Results flagged for a closer look

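The width of the H3K4me2 domain over the members moved in opposite directions in the 2 cell populations. Its median change was 25 bp between DMSO and MM-401 and -375 bp between EtOH and 4OHT. With 1 library per condition this difference was not tested. When H3K4me2 peaks up to 500 bp apart were merged first, both medians were negative, at -100 and -475 bp.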

How the results depend on the processing

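Of 95 values recomputed under other settings, 64 stayed within the counting interval of the reported value, 30 moved outside it and 1 changed sign. Values are given for MLL1 under MM-401 and for WDR5 in MM-401, EtOH and 4OHT, in that order. When a gap of up to 2 kb was allowed, the shares of members were 50.8%, 67.6%, 73.3% and 73.5%, and for H3K4me2 in MM-401, EtOH and 4OHT 100%, 99.8% and 99.8%. With 50% of the MLL1 peak covered they were 7.22%, 22.5%, 22.5% and 17.9%, with its midpoint covered 8.32%, 22.8%, 23.2% and 19.3%, and with the widest 50% of each list 11.4%, 27.6%, 29.8% and 26.7%, and 97.4% for H3K4me2 under 4OHT. With members covered at least 50% by DMSO WDR5 and H3K4me2, WDR5 stood at 44.2%, 47.0% and 35.8%, and H3K4me2 in EtOH at 99.5%. With lists of equal number, WDR5 stood at 33.4%, 28.1% and 25.1%. Which of MM-401 and EtOH retained more WDR5 thus changed with the setting. WDR5 in none of the 3 lists applied to 7.00% of members within 2 kb and to 56.0% by the midpoint. Merging H3K4me2 peaks up to 500 bp apart gave a median domain of 3625 bp and median changes of -100 bp under MM-401, which reversed its sign, and -475 bp under 4OHT. Leaving out chromosome 1, the sites with the same borders in every list or the widest 1% of MLL1 peaks, including sex chromosomes, or reading starts as 1-based moved no share of members outside its interval. The alternative settings for the width changes and WDR5 patterns, and those without chromosome 1 or the sites with the same borders, were added after the data were seen. No paired analysis was possible because each condition and antibody had 1 library, and for the same reason no replicate could be left out. Shares near start sites at 1 and 5 kb were not run. What depth contributed could not be assessed from positions alone.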

Other observations

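A stretch of 3325 bp on chromosome 9 stood apart from all other sites by its peak borders. The 3 WDR5 peaks at chr9:44615726-44616500, chr9:44616926-44617500 and chr9:44618476-44619050 had the same start and end in all 4 WDR5 lists. They were the only 3 of the 14289 autosomal DMSO WDR5 peaks to do so, and each was the partner of a member. An MLL1 peak under MM-401 had the same borders at each of the 3. The H3K4me2 peak over chr9:44615970-44616280, 750 bp wide, likewise had the same borders in all 4 H3K4me2 lists, as the only 1 of 102640 autosomal DMSO domains. These borders thus did not vary with antibody, treatment or cell population for the WDR5 and MM-401 MLL1 lists. The 3 members count among the 46 with WDR5 in all 3 other lists and among the 10 with a peak in all 7, which stood at 43 and 7 without them. Whether the stretch is present in extra copies or derives from a vector was not tested, since no mm9 sequence was used here, and its peaks cannot be read as binding without that check. The shares at the members without these sites are within the counting intervals.

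MLL1 was found under MM-401 at none of the 40 members on chromosome 7, which allows a share of up to 7.5% when the limit is set at 3 counts of the total, and at none of the 12 on chromosome 12 and the 16 on chromosome 19, which allows up to 25% and 18.8%. These chromosomes were picked out after the values were seen. WDR5 under MM-401 was found at 13 of the 40 members on chromosome 7.

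The members with the narrowest DMSO domains were picked for that width, so wider domains elsewhere follow in part from the choice, and the other conditions differed among them. The narrowest domain, 75 bp over chr7:119167337-119167510, measured 4575 bp under MM-401, 5125 bp in EtOH and 4525 bp under 4OHT. At chr3:35653202-35653349 a DMSO domain of 100 bp stood beside widths of 6925 bp under MM-401, 20150 bp in EtOH and 150 bp under 4OHT. At chr9:101002881-101003200, with a domain of 175 bp in DMSO and 325 bp in EtOH, WDR5 was called in all 4 lists and MLL1 in both, while H3K4me2 was not called at the member under MM-401 and 4OHT and lay 381 and 806 bp away.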
